A study of Mus musculus with 14 samples.

Results

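The genes described here are targets of the tumour suppressor p53 and inhibitors of cyclin-dependent kinases (CDKs), measured on exon arrays in 14 mouse thymic lymphomas. The set lists 10 genes by name, and array rows annotated to 1 of these genes alone gave values for 9 of them, with 62 probe sets in all, out of 15800 named genes. Trp53 itself was not analysed here, so the set is read through Cdkn1a, Cdkn1b, Cdkn2a, Mdm2, Ccng1, Trp53inp1, Perp, Aen and Bbc3.

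The tumours came from 2 models of T-cell acute lymphoblastic leukaemia, 7 from the Vav-SB model and 7 from the CD4-SB model. Both models carry Sleeping Beauty, a transposon system that mutates genes by inserting into them, and the series concerns the influence of the cell of origin on genetic selection. The Vav elements are known to be active throughout the blood-forming system, and the Cd4 elements in T-lineage cells. The labels give a strain name and thymic lymphoma as the disease, give no age and no further allele, and do not say whether any tumours shared an animal. Tumour titles open with a number of unstated meaning. It differs among all 7 Vav-SB tumours but takes 4 values among the 7 CD4-SB tumours. CD4-SB replicates 1 and 2 share a number, and so do CD4-SB replicates 5, 6 and 7. The p-values therefore measure the spread between these tumours. No normal thymus was analysed here.

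p53 is a transcription factor that DNA damage and oncogene activity stabilise. It switches on genes that halt the cell cycle, repair DNA or start cell death, and it also switches on Mdm2, whose product marks p53 for destruction and so closes a feedback loop. The CDK inhibitors act on the engine of the cycle itself: p21 (Cdkn1a) and p27 (Cdkn1b) bind cyclin-CDK complexes, while Cdkn2a encodes p16Ink4a, an inhibitor of CDK4 and CDK6, and from another first exon p19Arf, which holds Mdm2 away from p53. Loss of the Cdkn2a locus and p53 mutations are known lesions of mouse T-cell lymphomas.

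The 250 bases before each RefSeq transcription start (GRCm38.p6) were searched for the p53 half-site consensus, a 10-base motif that reads the same on both strands. Of the 9 measured genes 7 had an entry, with 12 starts in all, while Perp and Trp53inp1 had none. A half-site lay before 1 start of each of 4 genes, Cdkn1a, Ccng1, Mdm2 and Aen, and before 7.13% of all 32851 starts in the table. These 4 stretches are printed because the genes behind them did not behave alike between the models. Each runs in the direction of transcription, with the half-sites in capitals, which overlap no other match.
Cdkn1a, chr17:29090729-29090978, plus strand: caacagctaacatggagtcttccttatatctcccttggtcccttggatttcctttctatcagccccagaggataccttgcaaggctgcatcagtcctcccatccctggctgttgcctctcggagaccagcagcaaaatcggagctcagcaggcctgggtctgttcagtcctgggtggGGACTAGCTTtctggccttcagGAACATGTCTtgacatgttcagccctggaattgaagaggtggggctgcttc
Ccng1, chr11:40755287-40755536, minus strand: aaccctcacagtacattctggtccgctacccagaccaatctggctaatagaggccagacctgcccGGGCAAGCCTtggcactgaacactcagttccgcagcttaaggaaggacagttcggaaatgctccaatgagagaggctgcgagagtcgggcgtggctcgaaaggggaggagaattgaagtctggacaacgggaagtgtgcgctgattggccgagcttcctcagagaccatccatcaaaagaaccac
Mdm2, chr10:117710759-117711008, minus strand: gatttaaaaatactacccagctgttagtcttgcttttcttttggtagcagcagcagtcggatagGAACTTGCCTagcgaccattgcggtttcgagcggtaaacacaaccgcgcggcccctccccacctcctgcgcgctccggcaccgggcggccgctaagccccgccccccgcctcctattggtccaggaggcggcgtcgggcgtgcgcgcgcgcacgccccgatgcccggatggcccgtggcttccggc
Aen, chr7:78895808-78896057, plus strand: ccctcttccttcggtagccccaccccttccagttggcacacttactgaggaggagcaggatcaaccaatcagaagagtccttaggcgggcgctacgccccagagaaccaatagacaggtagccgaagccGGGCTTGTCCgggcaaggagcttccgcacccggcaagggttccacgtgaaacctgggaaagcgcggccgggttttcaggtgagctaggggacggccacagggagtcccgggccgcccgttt
Cdkn1a holds a pair of matches in this window, starting 73 and 51 bases before the start, and Ccng1, Mdm2 and Aen hold 1 each, starting 185, 186 and 121 bases before. A match describes letters and does not show binding. Sequence outside these windows was not searched, so a window without a match does not show that a gene lacks p53 sites.

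Values below are gene levels, the mean of the deposited log2 values over the probe sets of a gene, where a probe set mostly covers 1 exon. Means carry the SD over n = 7 tumours per model. Differences are Vav-SB minus CD4-SB, tested with limma across all genes with Benjamini-Hochberg adjustment and a threshold of 0.05. As the tumours were measured in bulk, fewer cells of a type and less RNA per cell cannot be told apart. The mean over 7 T-lineage markers, among them Cd3e and Thy1, was 10.71 to 11.14 in Vav-SB and 9.78 to 10.75 in CD4-SB tumours. Markers of myeloid and dendritic cells went the other way. Their mean over 15 genes was 7.49 to 8.16 in Vav-SB and 8.10 to 8.94 in CD4-SB tumours. Of the 15, 7 were called lower in Vav-SB and 0 higher, beside 7.18% and 7.28% of all genes.

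Of the 9 genes, 3 were lower in Vav-SB tumours (Cdkn1a, Ccng1 and Perp), 1 was higher (Trp53inp1) and 5 did not pass. Over all genes 7.18% were called lower and 7.28% higher, 14.5% in either direction. The 9 genes therefore did not shift one way: their median difference was -0.03 and that of all genes 0.00436. In 0 of the 9 were the models fully apart, against 4.04% of all genes, and the outlying tumours are named below. The plot of levels by tumour shows this overlap gene by gene.

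**Figure D1:**
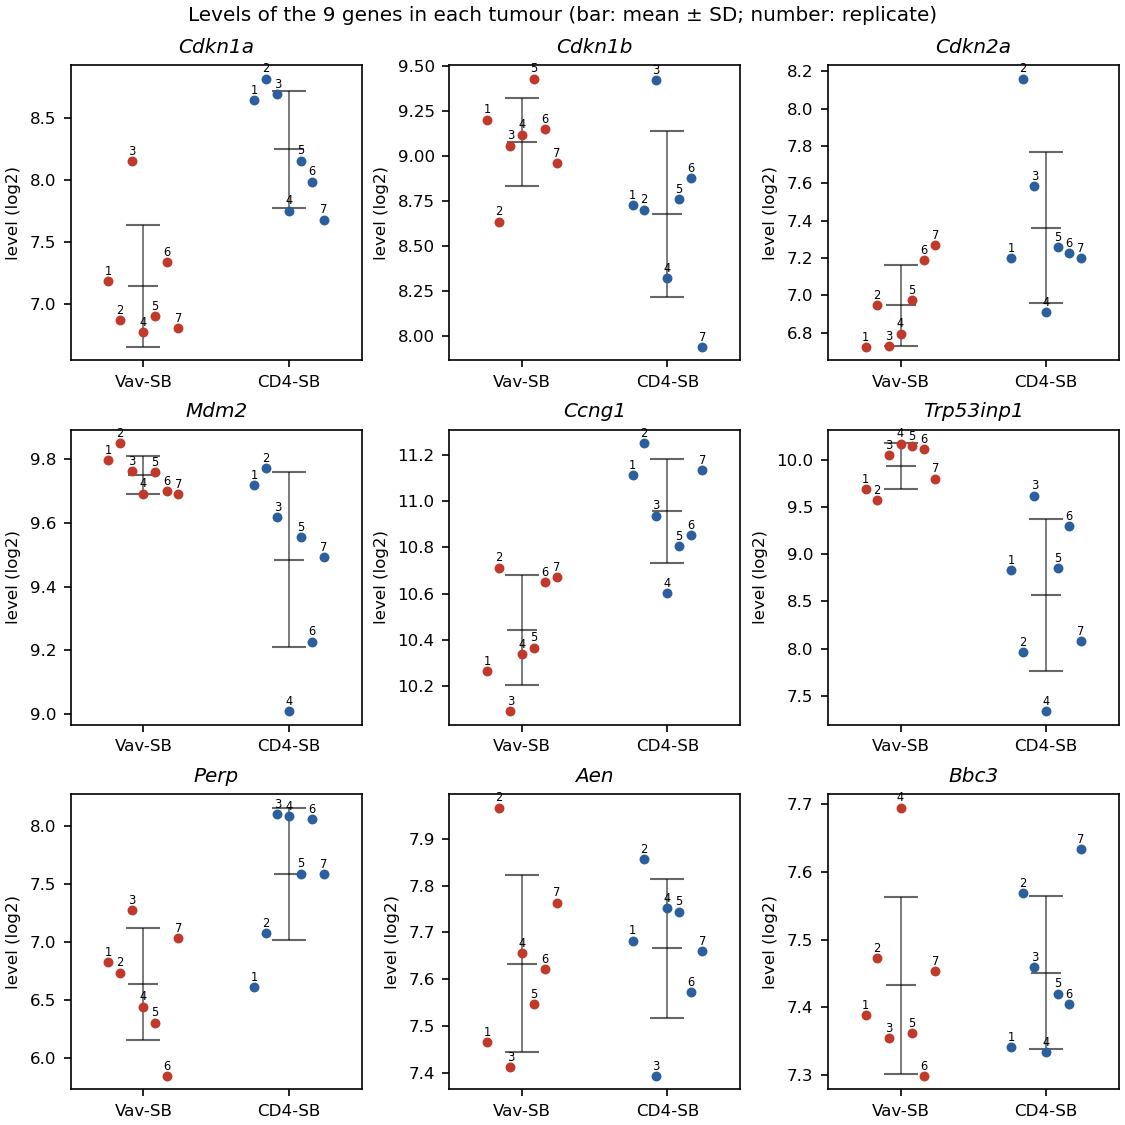
Level (log2) of the 9 genes in each of 7 Vav-SB (left, red) and 7 CD4-SB tumours (right, blue), numbered by replicate, with the mean and SD as bars and a separate axis for each gene. Cdkn1a, Ccng1 and Perp lie lower and Trp53inp1 higher in Vav-SB, with Vav-SB replicate 3 apart from its model for Cdkn1a at 8.15 and CD4-SB replicate 2 on top for Cdkn2a at 8.16.

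Cdkn1a encodes p21, the inhibitor through which p53 arrests the cycle. It was 2.15-fold lower in Vav-SB tumours, at 7.15 ± 0.49 against 8.25 ± 0.47 in CD4-SB (log2 difference -1.10 ± 0.24 SE, adjusted p = 0.00709). In Vav-SB the lowest, median and highest tumours were at 6.77, 6.90 and 8.15, and in CD4-SB at 7.68, 8.16 and 8.82. Of the Vav-SB tumours 6 lay below every CD4-SB tumour, and replicate 3 lay inside the CD4-SB range. Within CD4-SB, replicates 1, 2 and 3 were at 8.64, 8.82 and 8.69 and the other 4 at or below 8.16. Of these, replicates 1 and 2 share a title number. All 5 probe sets of the gene were lower in Vav-SB, by -0.55 to -1.56.

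Markers of other cell types were set beside Cdkn1a, and single tumours differed in how the levels lay. Vav-SB replicate 3, the tumour of that model highest in Cdkn1a, had the highest myeloid and dendritic marker level of its model, at 8.16, and its highest stromal and endothelial level, at 8.17. CD4-SB replicate 2, the highest in Cdkn1a of all 14 tumours, lay the other way: its mean over the 40 markers of other cell types was 7.504, the lowest of CD4-SB, and its myeloid and dendritic level of 8.21 was the lowest but one. With the mean of 40 markers of myeloid, dendritic, B, stromal, endothelial and epithelial cells as a covariate, the Cdkn1a difference was -0.65 and the call ended (adjusted p = 0.320), and 446 genes passed in all, against 2284 without the covariate. Without Vav-SB replicate 3 the difference was -1.27 (adjusted p = 0.00105). The mean of the 40 markers was itself 7.45 ± 0.23 in Vav-SB, against 8.04 ± 0.30 in CD4-SB tumours. With it in the fit the SE of the Cdkn1a difference was 0.34, against 0.24 without it. The covariate fit therefore cannot separate cell content from the model, and the part of other cells in the Cdkn1a result was not tested.

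Cdkn1b encodes p27, which holds resting T cells out of the cycle. It averaged 9.08 ± 0.24 in Vav-SB, against 8.68 ± 0.46 in CD4-SB tumours, a difference of 0.40 that did not pass (95% interval 0.00541 to 0.79, adjusted p = 0.173). The lowest, median and highest levels were 8.63, 9.12 and 9.43 in Vav-SB, against 7.94, 8.73 and 9.42 in CD4-SB. CD4-SB replicate 3 stood at the top of its model, and without it the call was made (difference 0.52, adjusted p = 0.0421). CD4-SB replicates 7 and 4, at 7.94 and 8.32, lay below all Vav-SB tumours.

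Of the other CDK inhibitors, Cdkn2c, which encodes p18Ink4c, a relative of p16Ink4a, was 1.89-fold higher in Vav-SB, at 9.87 ± 0.36 against 8.95 ± 0.60 (adjusted p = 0.0205). Its CD4-SB tumours ran from 7.73 in replicate 7 to 9.62 in replicate 4, and the Vav-SB tumours from 9.35 to 10.26. Cdkn1c, encoding p57, was at 7.77 ± 0.15 in Vav-SB, against 7.70 ± 0.16 in CD4-SB (adjusted p = 0.710). Thus 1 of 3 measured genes of this list rose and 0 fell, too few to set against the 7.28% and 7.18% of all genes.

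Cdkn2a averaged 6.95 ± 0.22 in Vav-SB, against 7.36 ± 0.40 in CD4-SB tumours (difference -0.42, 95% interval -0.77 to -0.0666, adjusted p = 0.107). Its lowest, median and highest levels were 6.72, 6.95 and 7.27 in Vav-SB, against 6.91, 7.23 and 8.16 in CD4-SB. No tumour stood out at the low end of either model, but single tumours stood high, and they did so in different parts of the gene.

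CD4-SB replicate 2 held the highest value of all 14 tumours in 5 of 6 Cdkn2a probe sets, and the mean of these 6 was 8.23 there, against 6.85 to 7.26 in the other CD4-SB tumours and 6.59 to 7.14 in Vav-SB. The remaining probe set, 5109689, followed another pattern. It was at 8.62 in Vav-SB replicate 7, 11.06 in CD4-SB replicate 3 and 9.30 in CD4-SB replicate 7, against 6.65 to 7.77 in the other 11 tumours. Its correlation over the 14 tumours with the mean of the other 6 probe sets was 0.0376, where the other probe sets had 0.39 to 0.81 with the mean of the rest. Without it the Cdkn2a difference was -0.36 (adjusted p = 0.202). Which first exon, if any, this probe set covers was not analysed here.

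Cdkn2b, the neighbour of Cdkn2a that encodes p15Ink4b, was highest in the same 3 tumours, which were picked out after their values were seen. It was at 8.27 in Vav-SB replicate 7, 8.002 in CD4-SB replicate 3 and 8.81 in CD4-SB replicate 7, against 7.08 to 7.63 in the other 11. Of its 4 probe sets, 5463047 and 5517094 carried this: 5517094 was at 8.65, 8.69 and 9.33 in those tumours and at most 7.55 elsewhere, while 5363396 was at 8.92, 8.40 and 9.17 against 7.76 to 9.19 elsewhere. Between the models Cdkn2b did not pass (7.33 ± 0.43 in Vav-SB, against 7.72 ± 0.54 in CD4-SB, adjusted p = 0.319). Mtap, on the other side of Cdkn2a in the gene table and an enzyme of methionine salvage that is often lost with it in human tumours, had its lowest level, 7.86, in CD4-SB replicate 3 and its highest, 9.79, in CD4-SB replicate 2.

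**Figure D2:**
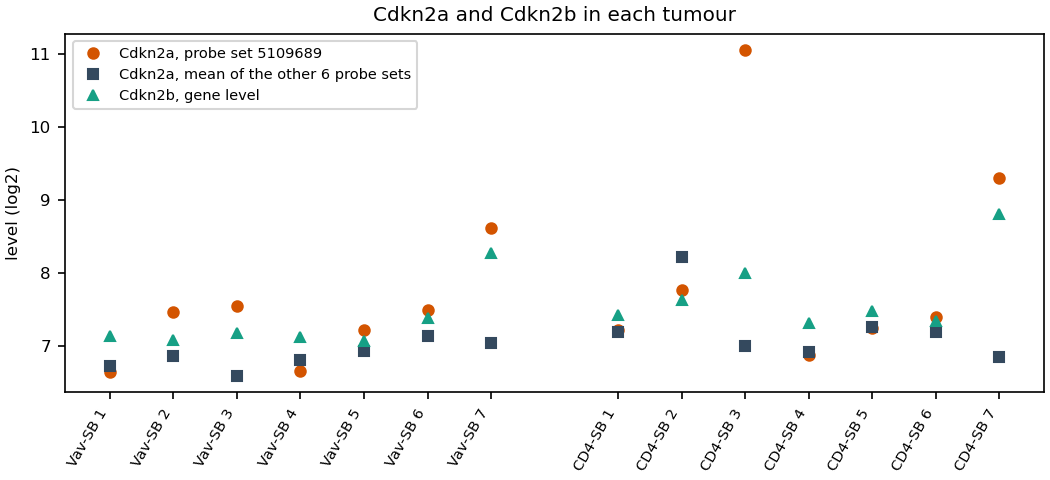
Levels (log2) in each tumour, Vav-SB on the left and CD4-SB on the right, of Cdkn2a probe set 5109689 (circles), the mean of the other 6 Cdkn2a probe sets (squares) and the Cdkn2b gene level (triangles). The single probe set and Cdkn2b peak in Vav-SB replicate 7 and CD4-SB replicates 3 and 7, and the other 6 probe sets peak in CD4-SB replicate 2 at 8.23.

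The 3 nearest measured genes on either side of Cdkn2a were Mtap, Ifne and Ifna4 and, on the other side, Cdkn2b, Dmrta1 and Zfp352. Of these 6, 0 passed in limma (differences -0.79 to 0.14), 1 having an unadjusted p under 0.05, and Dmrta1, a DM-domain transcription factor gene, came closest at 5.15 in Vav-SB, against 5.94 in CD4-SB (adjusted p = 0.0796). Around Trp53, where the gene itself was not analysed here, the 3 nearest on either side were Wrap53, Efnb3, Dnah2, Atp1b2, Shbg and Sat2. Their differences ran from -0.25 to 0.27 and 0 passed, 1 having an unadjusted p under 0.05. Wrap53, which lies head to head with Trp53, was at 7.06 to 7.32 in Vav-SB and 6.70 to 7.37 in CD4-SB tumours.

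Mdm2, the ubiquitin ligase that keeps p53 low, was at 9.75 ± 0.06 in Vav-SB, against 9.48 ± 0.27 in CD4-SB tumours (difference 0.27, 95% interval 0.0342 to 0.50, adjusted p = 0.121). Vav-SB tumours lay between 9.69 and 9.85 with a median of 9.76, one of the tightest groups on the array: 1.09% of all genes had a smaller SD within Vav-SB, although a mean over 13 probe sets is steadier than one over few. CD4-SB tumours ranged from 9.01 over a median of 9.55 to 9.77, and replicates 4 and 6, at 9.01 and 9.23, were the low ones. All 13 probe sets were higher in Vav-SB, by 0.0591 to 0.56. Mdm4, the relative of Mdm2 that masks the activation domain of p53, was at 9.99 ± 0.09 in Vav-SB, against 9.70 ± 0.35 in CD4-SB (adjusted p = 0.171), and CD4-SB replicate 4 was its lowest tumour too, at 8.94.

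Of 16 measured p53 regulators 1 rose in Vav-SB and 0 fell, where 7.28% of all genes rose and 7.18% fell. The 1 that rose was Usp7, the deubiquitinase that stabilises Mdm2 and p53. It was 1.43-fold higher, at 10.40 ± 0.15 in Vav-SB, against 9.88 ± 0.22 in CD4-SB (adjusted p = 0.00485). The median difference of this list was 0.06. The damage kinase gene Atm was at 8.33 in Vav-SB, against 8.25 in CD4-SB (adjusted p = 0.657), and Chek1 at 9.24 and 8.55 in the same order (adjusted p = 0.354).

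Ccng1 encodes cyclin G1, a p53 target that recruits a phosphatase to Mdm2. It was 1.43-fold lower in Vav-SB, at 10.44 ± 0.24 against 10.96 ± 0.22 in CD4-SB (adjusted p = 0.0121). The lowest, median and highest tumours were at 10.09, 10.37 and 10.71 in Vav-SB, against 10.60, 10.94 and 11.25 in CD4-SB. Of the CD4-SB tumours 6 lay above all Vav-SB tumours, replicate 4 being the exception at 10.60. All 9 probe sets were lower in Vav-SB, from -0.0203 for probe set 5104687 to -0.86 for 5293271. With a median over probe sets the value was -0.26 (adjusted p = 0.198), and with 1 tumour per title number it was -0.42 (adjusted p = 0.0734).

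Trp53inp1 encodes a p53-inducible nuclear protein that promotes death and autophagy. It was the 1 gene of the set that rose, 2.58-fold, at 9.93 ± 0.24 in Vav-SB, against 8.57 ± 0.81 in CD4-SB (adjusted p = 0.00673). Vav-SB tumours lay at 9.57, 10.05 and 10.17 as lowest, median and highest, and CD4-SB tumours at 7.34, 8.83 and 9.62. Apart from CD4-SB replicate 3 at 9.62, each CD4-SB tumour lay below all Vav-SB tumours. The 6 probe sets rose by 1.08 to 1.53. This call held in all 26 alternatives run, with differences of 1.16 to 1.96 and adjusted p of 0.00219 to 0.0249. They include a change to Cdkn2a alone, which could not alter Trp53inp1.

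**Figure D3:**
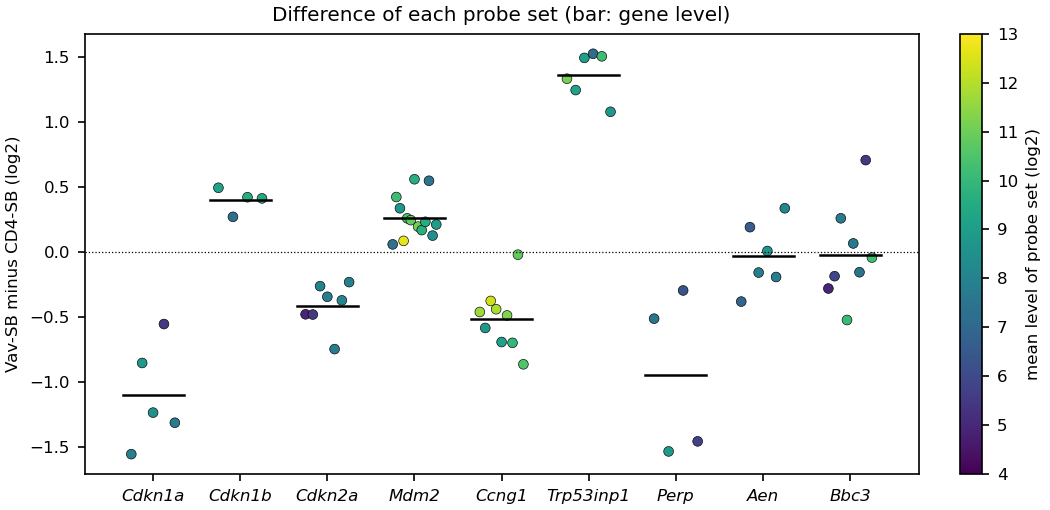
Difference Vav-SB minus CD4-SB (log2) of each of the 62 probe sets, coloured by its mean level, with the gene level as a black bar. All probe sets of Cdkn1a, Cdkn2a, Ccng1 and Perp lie below 0 and all of Cdkn1b, Mdm2 and Trp53inp1 above it, while those of Aen and Bbc3 lie on both sides.

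Perp encodes a membrane protein of desmosomes that p53 induces in dying cells and its relative p63 induces in stratified epithelia. It was 1.93-fold lower in Vav-SB, at 6.64 ± 0.48 against 7.59 ± 0.57 in CD4-SB (difference -0.95 ± 0.26 SE, adjusted p = 0.0244). The lowest, median and highest tumours were at 5.85, 6.74 and 7.27 in Vav-SB, against 6.61, 7.59 and 8.10 in CD4-SB. CD4-SB replicates 1 and 2, at 6.61 and 7.08, lay inside the Vav-SB range and the other 5 above it. The fall was uneven along the gene: probe sets 4758100 and 5545247 differed by -1.53 and -1.46, and 4360353 and 4881165 by -0.51 and -0.30.

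Perp followed markers of epithelial cells from tumour to tumour. The 7 markers were Cdh1, Epcam, Foxn1, Krt5, Krt14, Krt18 and Psmb11. Their mean was 6.28 to 8.21 in Vav-SB and 7.10 to 8.33 in CD4-SB tumours. Vav-SB replicate 6 was the lowest of its model in both. CD4-SB replicates 1 and 2, which share a title number, were the lowest CD4-SB tumours in both. Of the 7 markers 1, Krt5, passed as lower in Vav-SB and 0 as higher, beside 7.18% and 7.28% of all genes. The differences of Psmb11 (0.45, adjusted p = 0.176) and Foxn1 (0.087, adjusted p = 0.588) lay above 0, and those of the rest below it. With the epithelial level as a covariate the Perp difference was -0.56 (adjusted p = 0.0366). With the mean of all 40 markers of other cell types, which includes these 7, it was -0.59 (adjusted p = 0.435). The call also ended with a median over probe sets, with 1 tumour per title number and when Y-linked genes entered as a covariate (adjusted p = 0.063, 0.0658 and 0.0569). It ended too without Vav-SB replicate 5 or CD4-SB replicate 6 (adjusted p = 0.0538 and 0.0512). The mean of the 2 measured Y-linked genes was 9.28 to 9.49 in Vav-SB replicates 4, 5 and 6 and 9.26 in CD4-SB replicate 3. In every other tumour of either model this mean was at most 4.70.

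**Figure D4:**
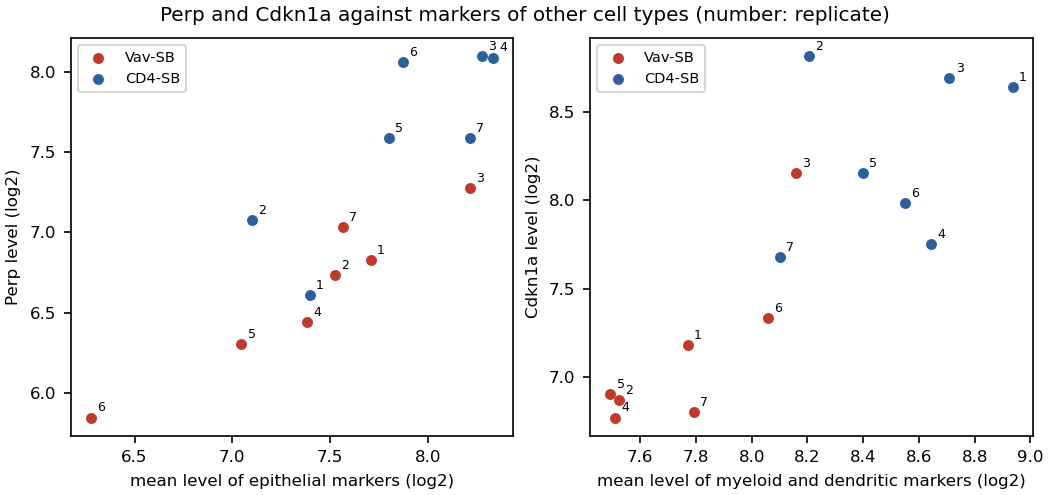
Perp against the mean level of 7 epithelial markers (left) and Cdkn1a against that of 15 myeloid and dendritic markers (right), all in log2, for Vav-SB (red) and CD4-SB tumours (blue), numbered by replicate. Tumours low in epithelial markers are low in Perp, such as Vav-SB replicate 6 at 5.85, and Vav-SB replicate 3, high in Cdkn1a, has the highest myeloid marker level of its model, at 8.16, while CD4-SB replicate 2, highest in Cdkn1a at 8.82, has the lowest but one of its model, at 8.21.

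Aen and Bbc3 did not pass. Aen, an exonuclease gene that p53 induces in apoptosis, was at 7.63 ± 0.19 in Vav-SB, against 7.67 ± 0.15 in CD4-SB (95% interval of the difference -0.24 to 0.17, adjusted p = 0.870). Bbc3, which encodes the killer protein Puma, through which p53 kills thymocytes, was at 7.43 ± 0.13 in Vav-SB, against 7.45 ± 0.11 in CD4-SB (95% interval -0.19 to 0.15, adjusted p = 0.907). Aen lay between 7.41 and 7.97 in Vav-SB and between 7.39 and 7.86 in CD4-SB, with medians of 7.62 and 7.68. Bbc3 lay between 7.30 and 7.70 in Vav-SB and between 7.33 and 7.63 in CD4-SB, with medians of 7.39 and 7.42. The probe sets of these genes hardly moved together, with median correlations between probe sets over the 14 tumours of 0.16 and 0.0072, against 0.92 in Cdkn1a and 0.95 in Trp53inp1.

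Within genes, 1 of the 62 probe sets differed from the rest of its gene by limma's diffSplice, beside 1.33% of 177030 probe sets tested. It was Bbc3 probe set 5380516, at 5.76 in Vav-SB, against 5.05 in CD4-SB, 0.83 above the rest of its gene (adjusted p = 0.0116). The brighter Bbc3 probe set 4989680 went the other way, at 9.84 in Vav-SB, against 10.36 in CD4-SB. Its difference from the rest was -0.58, which did not pass (diffSplice adjusted p = 0.190). Each probe set was also set against the mean of the others tumour by tumour, a test added after seeing the data. There the adjusted p of 5380516 was 0.128 and 0 of the 62 passed, with 12 at an unadjusted p under 0.05.

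Of 26 other p53 targets measured 1 rose and 1 fell in Vav-SB, where 7.28% of all genes rose and 7.18% fell. The median difference of these 26 was -0.0233. Btg2, an antiproliferative gene, was 2.29-fold higher, at 10.35 ± 0.35 against 9.15 ± 0.88 in CD4-SB (adjusted p = 0.0241). Plk3, a stress-response kinase gene, was 1.51-fold lower, at 6.89 ± 0.08 in Vav-SB, against 7.49 ± 0.25 in CD4-SB (adjusted p = 0.00178). It was the 1 gene of this list in which the models did not overlap, 6.76 to 7.02 against 7.24 to 7.85. Over all genes 4.04% showed no overlap, so 1 of 26 is near that share. The damage-response genes Gadd45a (8.11 in Vav-SB, 8.06 in CD4-SB, adjusted p = 0.924), Zmat3 (7.37 and 7.40 in the same order, adjusted p = 0.938) and Ppm1d (8.22 and 8.24, adjusted p = 0.950) did not pass.

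Among 15 measured genes of the G1 engine that the CDK inhibitors act on, 2 rose and 1 fell, beside 7.28% and 7.18% of all genes. The median difference of these 15 was 0.33. Ccnd2, encoding cyclin D2, was 3.84-fold lower in Vav-SB, at 7.88 ± 0.39 against 9.82 ± 1.18 in CD4-SB (adjusted p = 0.00816). Skp2, the ubiquitin ligase subunit that removes p27, was 1.79-fold higher, at 8.60 ± 0.29 against 7.77 ± 0.45 (adjusted p = 0.00953), and E2f2, a transcription factor of S-phase genes, 1.57-fold higher, at 7.14 ± 0.19 against 6.49 ± 0.37 (adjusted p = 0.0101). Rb1, the brake that these kinases release, was at 9.11 in both models (adjusted p = 0.998).

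**Figure D5:**
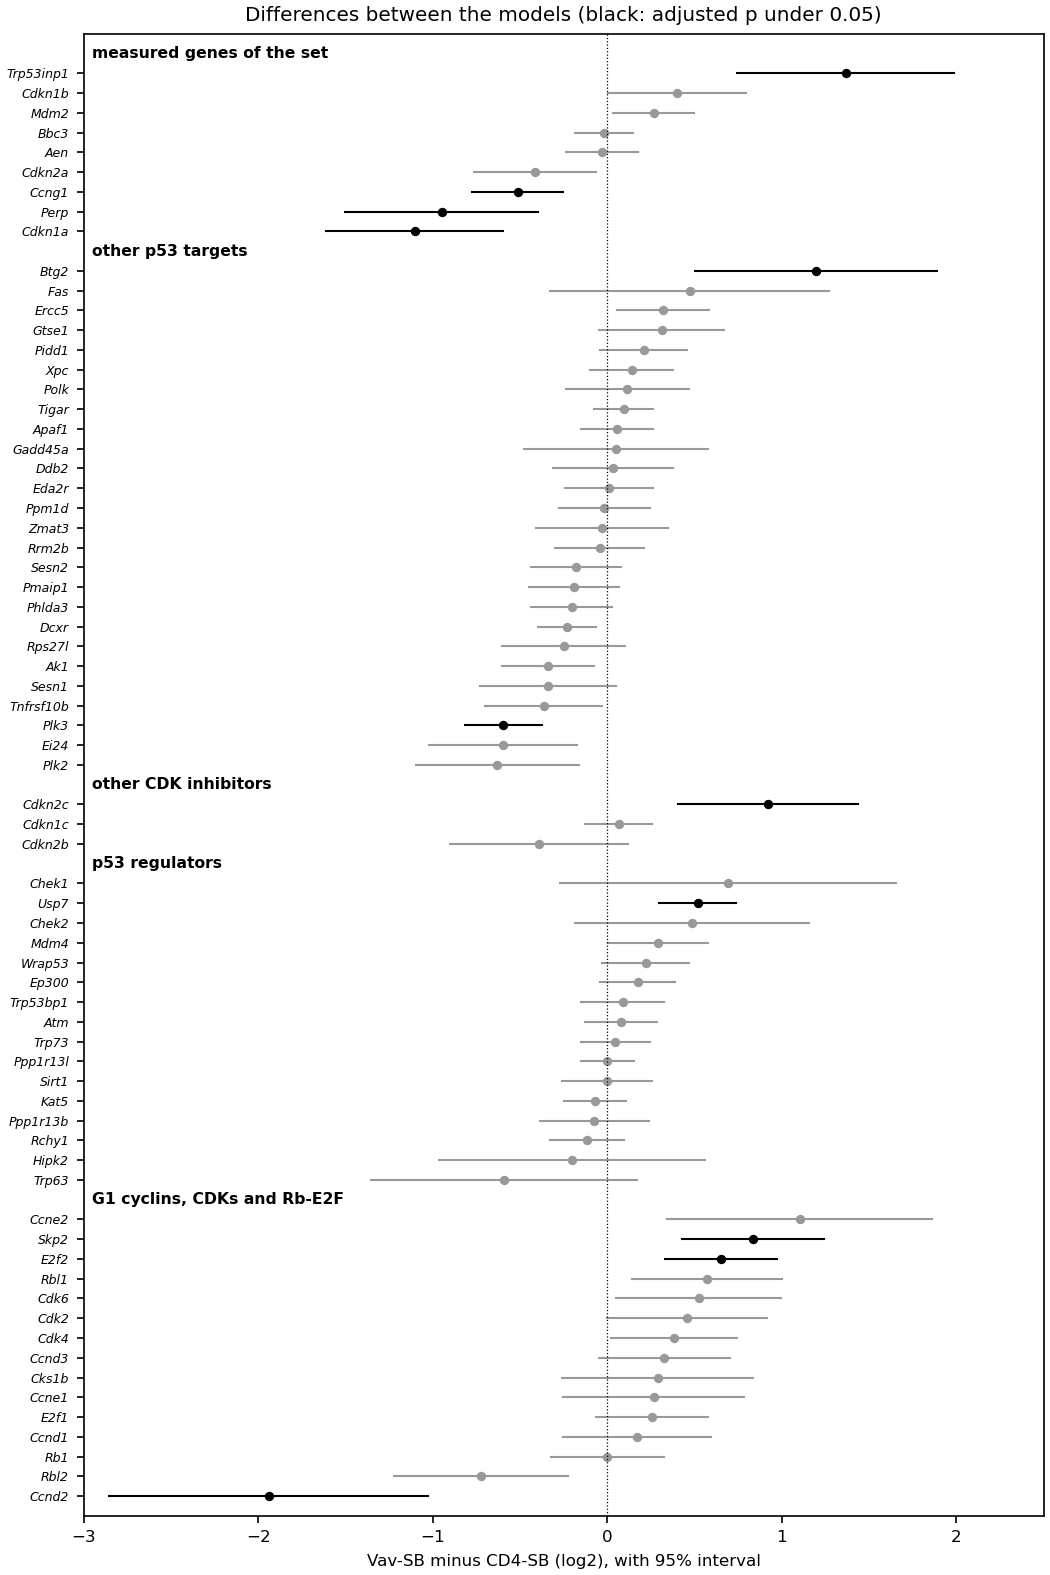
Difference Vav-SB minus CD4-SB (log2) with its 95% interval for the 9 genes, 26 other p53 targets, 3 other CDK inhibitors, 16 p53 regulators and 15 G1 genes, in black where the adjusted p of limma was under 0.05. Of the 9 genes and the other p53 targets, Btg2 and Trp53inp1 passed on the right and Cdkn1a, Perp, Plk3 and Ccng1 on the left, while several in grey, such as Mdm2, Ercc5, Ei24 and Plk2, have intervals that exclude 0 but did not pass after adjustment.

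The genes of the set did not keep step with each other across tumours strongly enough to pass. Over 36 pairs within each of 2 models, 72 relations with n = 7 each, 0 passed after adjustment in exact permutation tests of Pearson's r or of Spearman's rho. By r the smallest adjusted p was 0.402 and 7 relations had an unadjusted exact p under 0.05. By rho the smallest adjusted exact p was 0.295 and 5 relations had an unadjusted one under 0.05. Cdkn1a and Mdm2 had r = 0.089 in Vav-SB (rho = 0.43, two-sided exact permutation p = 0.861 and 0.354, adjusted 0.983 and 0.795). In CD4-SB they had r = 0.78 (rho = 0.86, exact p = 0.0335 and 0.0238, adjusted 0.402 and 0.429), and 0.69 without the 2 tumours farthest from the median of Cdkn1a.

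For each gene the 2 most alike in tumour-to-tumour pattern were taken among genes above the median level, by Pearson's r over the 14 tumours after subtracting each model's mean, as a description. For Perp these were Trp63, the p63 gene, and Pax1, a factor of the thymic epithelium, at r = 0.92 and 0.91. Trp63 itself was at 7.05 ± 0.56 in Vav-SB, against 7.64 ± 0.87 in CD4-SB tumours (adjusted p = 0.309). Aen was most like Mthfd2, a mitochondrial folate enzyme gene, and Mars1, a methionyl-tRNA synthetase gene (0.88 and 0.87), and Trp53inp1 most like Fbxl12 and Uba7 (0.93 and 0.92). The others paired with Tjp1 and Snx9 (Cdkn1a), Il16 and Esyt2 (Cdkn1b), Hivep2 and Arid3b (Cdkn2a), Foxn2 and Ubp1 (Mdm2), Macroh2a3 and Htt (Ccng1), and Mapk7 and Engase (Bbc3), at r of 0.83 to 0.89. For Mdm2 r was 0.93 and 0.92 within CD4-SB, against 0.23 and 0.05 within Vav-SB. Mdm2 varied more in CD4-SB (SD 0.27, against 0.06 in Vav-SB), so a choice by r over all 14 tumours leans on CD4-SB. This split follows from the choice and says nothing about the models.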

How the data were processed

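RNA of 14 thymic lymphomas, 7 per model, was measured on Affymetrix mouse exon arrays. Per the labels' protocols, total RNA was amplified into cDNA from a small input and labelled with biotin. The deposited values are log2 per probe set, one column per tumour. Per the submitters' processing notes the tools were RMA and Partek, whose versions, background step and filter were not stated. The log base is likewise unstated. The values run from 2.03 to 14.03 with column medians of 7.46 to 7.50, and are read as log2.

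Of 194293 probe sets, 179496 carry 1 gene symbol in the platform annotation, 1328 several and 13469 none. Symbols were updated through RefSeq names (GRCm38.p6): 13727 were current and 2020 were replaced. Gene levels are means over probe sets. Limma 3.58.1 in R 4.3.3 (lmFit, eBayes, diffSplice) tested genes and probe sets, with Benjamini-Hochberg adjustment over 15800 genes or 177030 probe sets of genes with at least 3. Alternatives on part of the data were adjusted over the genes or probe sets tested in them. Correlations were tested by exact permutation over 5040 pairings in Python 3.11.15, with Benjamini-Hochberg adjustment over 72 relations. Groups came from the strain label and replicate numbers from accession order. The number of arrays limits the precision.

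Named genes are the set, list genes past the threshold (up to 4 per list), all other CDK inhibitors, 3 neighbours on each side of Cdkn2a and Trp53, and 2 most alike genes per member. Values given for genes outside this rule (Mdm4, Atm, Chek1, Gadd45a, Zmat3, Ppm1d, Rb1) and the 3 tumours high in Cdkn2b were chosen after the values were seen. The members and lists were chosen with earlier results of these data known. Trp53 is not analysed here.

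Both tests were run on simulated normal values, drawn independently for each gene or probe set and each tumour. With 200 of 15800 genes changed, the gene test recovered 46% of shifts of 0.5 (log2), 90% of 1, 98% of 2 and 100% of 4, with 7 calls among unchanged genes. DiffSplice recovered 96% of 200 probe sets shifted by 2, but called 422 in unchanged genes. A comparison of each probe set with the mean of the others was therefore added, which recovered 93% with 11 such calls. In the data probe sets of a gene can move together (median correlation 0.0072 in Bbc3 to 0.95 in Trp53inp1). The simulations left this out, as well as shared cell content and title numbers, so their rates need not hold for these data.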

Additional observations from a re-analysis of the deposited data

Results flagged for a closer look

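Of 18 groups of 7 tumours, 9 genes in 2 models, 1 held a tumour far from the rest by Dixon's test: Cdkn1a was at 8.15 in Vav-SB replicate 3, the next Vav-SB tumour being at 7.34. Chance flags about 1 in 20 groups.

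The 7 Cdkn2a probe sets were examined in the same way, and 4 of 14 groups held such a tumour. CD4-SB replicate 2 stood above its model in probe sets 4365486 at 6.39, 4932098 at 9.13 and 5099004 at 8.90. Vav-SB replicate 6 stood above its model in probe set 4721278, at 6.45. Probe set 5109689, with 2 high tumours in CD4-SB, does not meet this test, which looks for 1.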

How the results depend on the processing

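Each result was recomputed under up to 26 alternatives, among them a change to Cdkn2a alone that could not alter the other genes' levels. Of the 9 genes, 4 passed as reported, and 2 with a median over probe sets, 2 with 1 tumour per title number and 2 with the markers of other cell types as a covariate. Leaving out single tumours gave 3 to 5 genes. Over all genes 2284 passed as reported, 446 with the marker covariate, and 1630 to 2519 without single tumours. The direction of Cdkn1a, Cdkn1b, Cdkn2a, Mdm2, Ccng1, Perp and Trp53inp1 held in every alternative run for them. Cdkn2a passed with the epithelial markers as a covariate (difference -0.57, adjusted p = 0.0337), an alternative chosen after seeing the data. Aen and Bbc3, whose differences lie near 0, changed sign: Aen was at 0.005 when Y-linked genes entered the fit, and Bbc3 at 0.037 with a median over probe sets and 0.044 with 1 tumour per title number. Without single tumours Aen ran from -0.088 to 0.0043 and Bbc3 from -0.063 to 0.011. Of 1 probe set called by diffSplice, 0 remained with bright probe sets alone, where it was not tested, 0 with the marker covariate and 0 against the mean of the others. The causes were not tested. No paired analysis was possible because replicate numbers were given in accession order and the labels pair no tumours across models. With the title number as a random block the 9 genes gave 4 calls, and 2769 genes passed in all. The block correlation was estimated at -0.16, so this fit makes no allowance for likeness among tumours that share a number. Low levels lie near background, where differences are compressed.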

Other observations

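CD4-SB replicate 2, the tumour highest in Cdkn2a, also differed from its model in other genes. Its Ccnd2 level was 7.38, against 9.58 to 10.84 in the other 6 CD4-SB tumours and 7.35 to 8.50 in Vav-SB. Its mean level of T-lineage markers was 9.78, the lowest of the 14 tumours, and its epithelial marker level of 7.10 was the lowest of CD4-SB. Skp2 was highest of its model there, at 8.35, against 7.17 to 8.25 in the other CD4-SB tumours. Btg2 was at 8.28 in this tumour and at 8.004 in CD4-SB replicate 7, against 8.99 to 10.61 in the other 5. These values are given without an explanation.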
